A study of Homo sapiens with 32 samples.

Results

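MHC class II genes and CIITA, the factor that switches them on, were followed in THP-1 cells, a human monocytic leukemia line. The group holds 10 genes, found by their symbols among the 60107 genes of the count tables: CIITA, CD74, HLA-DRA, HLA-DRB1, HLA-DPA1, HLA-DPB1, HLA-DQA1, HLA-DQB1, HLA-DMA and HLA-DMB. All 10 passed the filter of a mean normalized count of at least 10 over all libraries and were among the 12406 genes tested. The rule matches symbols and uses no measured value, but the group was proposed with earlier results of these data known. Because that filter is a mean over all libraries, genes as low as HLA-DQA1 and HLA-DMB in WT cells passed it through the lines in which they were high.

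The study asked how the catalytic activity and the serine 455 phosphorylation of ATP-citrate lyase (ACLY), which makes acetyl-CoA from citrate in the cytosol and nucleus, bear on gene expression in these cells. KO cells carry an ACLY knockout. Knockout cells were then rebuilt by lentiviral transduction and puromycin selection into 3 further lines, called WT, HA and SA, with constructs for wild type ACLY, the catalytically inactive H760A mutant or the S455A mutant that cannot be phosphorylated at this site. Each line was sequenced without treatment and after 3 hours with 100 ng/ml LPS, the bacterial endotoxin to which monocytes respond, giving 8 groups of 4 libraries and 32 libraries in all. The dose is the one in the sample labels and in the study's figure legend for these data, while the general paragraph on treatments in the methods gives a lower one. There was 1 line per genotype, so that the genotype cannot be told apart from other differences between the lines. Nothing in the labels states that the 4 libraries of a group came from separate cultures, and p-values then measure only the spread between these libraries.

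MHC class II molecules present peptides from endosomes to CD4+ T cells. They are pairs of an alpha and a beta chain (HLA-DR, HLA-DP and HLA-DQ), which assemble with the invariant chain CD74 and receive their peptide with the help of HLA-DM. CIITA binds no DNA itself. It is recruited by the RFX, CREB and NF-Y proteins, which sit on the X and Y boxes of class II promoters, and it is induced by interferon gamma through signalling that involves JAK1, JAK2 and IRF1. Monocytes carry class II molecules, at lower levels than dendritic cells and B cells.

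On GRCh38, CIITA (ENSG00000179583) spans 10866222 to 10943021 of chromosome 16 (plus strand) and CD74 (ENSG00000019582) spans 150401637 to 150412969 of chromosome 5 (minus strand). The other 8 genes lie within 1 cluster on chromosome 6, from the start of HLA-DRA (ENSG00000204287) at 32439878 to the end of HLA-DPB1 (ENSG00000223865) at 33089696. HLA-DPA1 and HLA-DPB1 overlap there on opposite strands. These positions are those of GENCODE release 44.

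The promoters of 8 of the 10 genes were in the RefSeq promoter table on GRCh38.p14, which gives 250 bases before to 50 bases after each gene's start. CIITA and HLA-DRA had no entry. The letters AGNNACNGATG, which cover the core of the X box, and ATTGG, the core of the Y box to which NF-Y binds, were searched on both strands. The first pattern was present in 0.817% of all 35116 promoters and in those of 4 members, HLA-DRB1, HLA-DQB1, HLA-DMA and HLA-DMB. ATTGG was present in 34.6% of all promoters and in those of 7 members. An X pattern followed on the same strand by ATTGG, from 25 to 45 bases further on, was present in 9 promoters of the table, or 0.0256%, 3 of which belong to members. The 4 windows with the X pattern are shown because these short stretches are where the complex that recruits CIITA is known to assemble. They run 5′ to 3′ on the gene's strand, and capitals mark the X pattern and, where present, the ATTGG after it. A match is a description of these letters and does not show binding.
HLA-DRB1: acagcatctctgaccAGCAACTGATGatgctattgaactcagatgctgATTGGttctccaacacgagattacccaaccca
HLA-DQB1: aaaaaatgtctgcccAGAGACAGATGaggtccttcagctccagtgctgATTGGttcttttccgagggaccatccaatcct
HLA-DMA: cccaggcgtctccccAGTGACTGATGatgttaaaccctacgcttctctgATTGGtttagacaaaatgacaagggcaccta
HLA-DMB: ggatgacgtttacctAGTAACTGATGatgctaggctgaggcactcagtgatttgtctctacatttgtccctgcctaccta
The windows are chr6:32589863-32589942, chr6:32666714-32666793, chr6:32953146-32953225 and chr6:32941052-32941131, all on the minus strand of GRCh38.p14. The X pattern began 79, 121, 113 and 88 bases before the gene's start in this order. The distance from the first base of the X pattern to the first base of ATTGG was 33 bases in HLA-DRB1, 33 in HLA-DQB1 and 34 in HLA-DMA. All of it is reference sequence, not that of THP-1 cells.

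The libraries held a median of 10247620 reads on genes (6504099 to 14750815) and were made with a 3′ kit that yields about 1 fragment per transcript, whatever its length. All values are normalized counts on 1 scale shared by the 32 libraries. The RNA level of ACLY, the targeted gene, did not separate the lines. Without LPS its normalized count was 92.0 to 119 in WT, while KO libraries held 68.1 to 108, HA libraries 68.2 to 135 and SA libraries 103 to 164, and what part of these reads came from the constructs is not known. In the study's own assays, ACLY activity was reduced in KO and HA cells and intact in SA cells. Its western blots showed the ACLY protein again in the rebuilt lines. In 1 library, SA LPS replicate 1, the log2 levels of all genes tested correlated with the mean of the other 3 libraries of its group at r = 0.799, against 0.908 or more in the other 31 libraries, and ACLY stood at 333 there against 97.1 to 112. It also enters the spread shared by all comparisons, and values without it are given where it moves a result.

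HLA genes are polymorphic and similar in sequence to one another. In the reference, 0.939% of the 75-base stretches of the last 500 bases of the HLA-DRB1 transcript also occur in another gene, HLA-DRB5, and none of those of the other 7 HLA members or of CD74 do. For CIITA, 73.2% of these stretches also occur in AC133065.3, an overlapping gene, which had 0 to 22 reads per library against 5 to 207 for CIITA. How reads that fall on both genes were counted is not stated, and reads of CIITA may have been missed. The alleles of THP-1 cells were not compared with the reference, reads of HLA genes may have been missed or assigned to a related gene, and levels of different HLA genes are therefore set side by side with this limit.

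CIITA, the master regulator, was low in WT cells and several-fold higher in both lines without active ACLY. Its normalized count in the 4 WT libraries was 7.26, 7.64, 21.6 and 8.88, from 5 to 19 reads. In KO cells it was 97.5, 65.5, 118 and 47.6, and in HA cells 83.5, 66.4, 86.1 and 59.9. In SA cells it was 14.6, 10.9, 10.003 and 14.3. No KO or HA library overlapped the range of WT and SA cells. After LPS, CIITA stood at 15.2, 14.9, 17.8 and 23.3 in WT, at 180.4, 135, 242 and 152 in KO, at 244, 149, 155 and 124 in HA, and at 99.8, 13.02, 25.9 and 13.01 in SA cells. The KO and HA libraries were again above all others, and SA LPS replicate 1 was the nearest to them.

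Fold changes are log2 differences of normalized counts after adding 1, so those of low genes come out too small. Relative to WT, CIITA was up-regulated in KO cells by 2.804 (standard error 0.43) without LPS and by 3.23 with LPS, and in HA cells by 2.72 and 3.14 (limma adjusted p = 6.20e-05, 6.68e-06, 1.53e-04 and 2.27e-05). These correspond to 6.98-, 9.40-, 6.60- and 8.83-fold higher levels. In SA cells the difference from WT was 0.24 without LPS, with a 95% confidence interval of -0.64 to 1.13, and 0.54 with LPS. Without SA LPS replicate 1 the latter was -0.09.

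Over the group, 9 of the 10 genes were up-regulated in KO relative to WT cells without LPS and 9 with LPS, at an adjusted p below 0.01. Over all genes tested, 2.9% and 3.47% passed this limit in these comparisons. In HA cells, 8 of the 10 were up-regulated without LPS and 9 with LPS, against 2.52% and 2.02% of all genes. None of the 10 was down-regulated. HLA-DQA1 and HLA-DMB, which passed the filter on low counts through the KO and HA lines, enter these counts and the values below. HLA-DQA1 was called in all 4 comparisons and HLA-DMB in all but HA without LPS. The median log2 fold change of the 10 genes was 2.803 and 3.23 in KO and 2.36 and 3.07 in HA cells without and with LPS, while the median over all genes was between -0.03 and -0.01 in these 4 comparisons. In all 4, every library of the line without active ACLY was above every WT library for 10 of 10 genes, a separation in either direction that 12% to 17.6% of all genes showed.

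HLA-DQB1, a beta chain of HLA-DQ, was the gene that did not pass in any of these 4 comparisons (limma adjusted p = 0.0196 and 0.0256 in KO and 0.0340 and 0.0499 in HA). Its normalized count was 120.5, 129.9, 110.2 and 114 in WT, 455, 527, 274 and 485 in KO, and 210.3, 348, 422 and 648 in HA cells. The groups did not overlap, and the spread within HA was wide. In SA LPS replicate 1 it was 11.7, against 133 to 160.4 in the other 3 libraries of that group, and this library enters the shared estimate of the spread. Without it, HLA-DQB1 passed in all 4 comparisons (limma adjusted p between 6.32e-06 and 6.41e-05), and the counts became 10 and 10 of 10 genes in KO (3.84% and 5.06% of all genes passed) and 9 and 10 in HA cells (4.47% and 2.84%). Same-numbered WT and KO libraries deviated together, and in a fit of these groups blocked on the replicate number HLA-DQB1 also passed in KO cells, with limma adjusted p = 3.40e-05 without and 4.05e-06 with LPS, so that all 10 genes did, in a fit that called 5.83% and 10.7% of all genes.

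**Figure D1:**
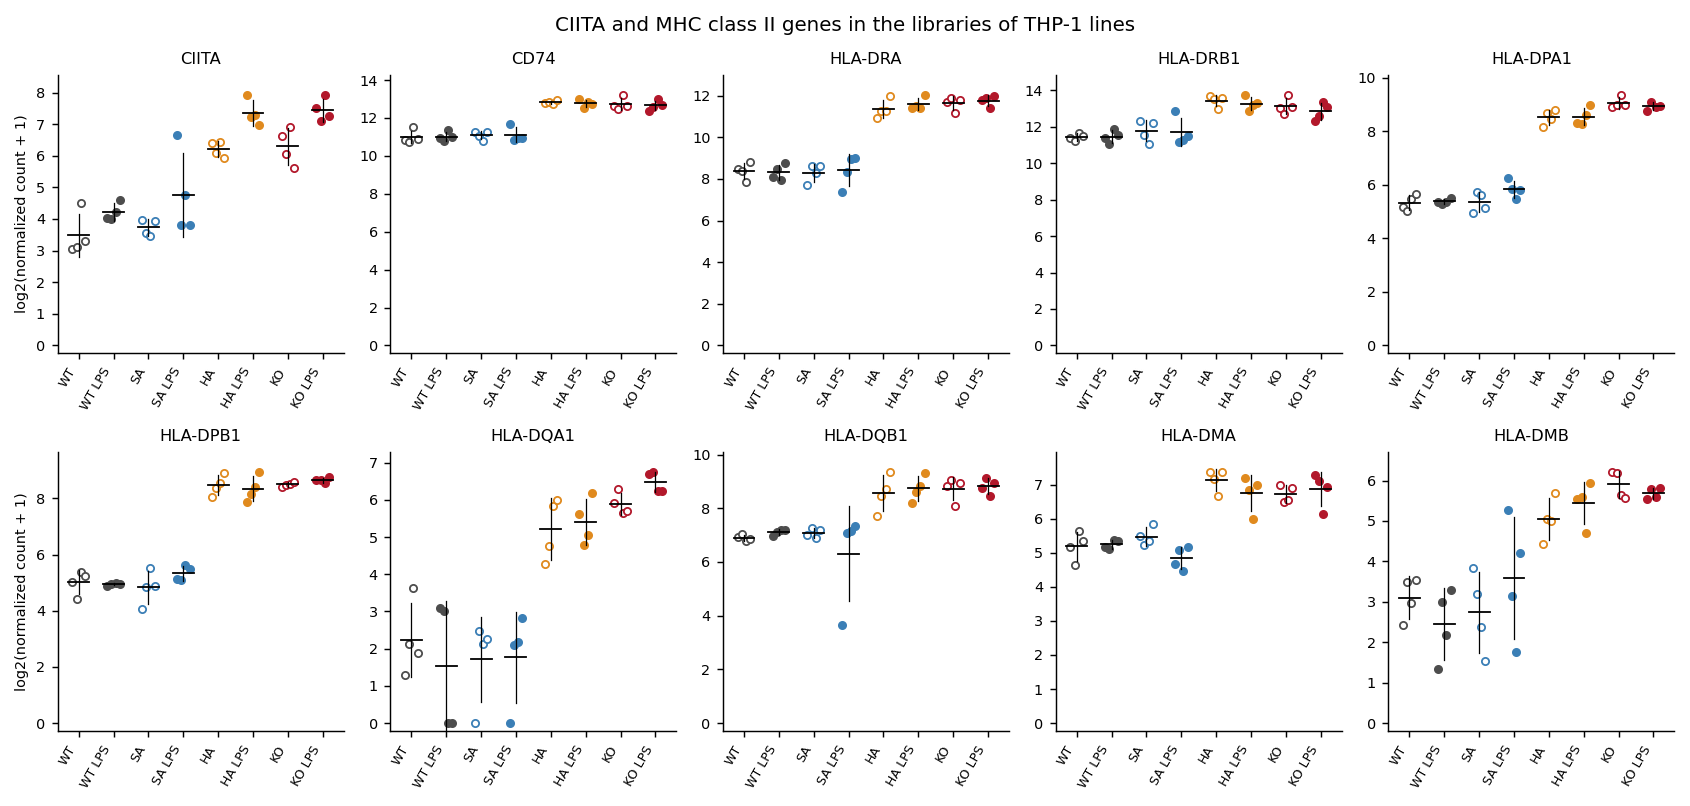
Level of each of the 10 genes in each library, as log2(normalized count + 1), for the 8 groups, with open circles for unstimulated and filled circles for LPS-treated cells, a horizontal line for the mean and a vertical line for 1 SD (n = 4). The HA and KO libraries lie above the WT libraries in every panel, and SA LPS replicate 1 lies apart from its group for CIITA (99.8) and HLA-DQB1 (11.7).

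CD74, the invariant chain that guards the binding groove during assembly, was among the most abundant members. It stood at 1851, 1708, 2893 and 1903 normalized counts in WT and at 6371, 5621, 9621 and 6261 in KO cells. In HA cells it was 6975, 7269.9, 6877 and 7757, and in SA cells 2472, 2089, 1779.7 and 2456. The KO and HA libraries were above all WT and SA libraries. In KO cells CD74 was up-regulated by 1.74 and in HA cells by 1.82 (limma adjusted p = 3.13e-07 and 3.49e-07), or 3.34- and 3.53-fold, and 1.64 and 1.75 after LPS.

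HLA-DRA, the alpha chain of HLA-DR, had 359, 329, 233 and 454 normalized counts in WT cells and 207, 398, 307 and 387 in SA cells. In KO cells it had 3261, 3804, 2271 and 3596, and in HA cells 1954, 2471, 2433 and 4026. The lowest HA library was thus more than 4 times as high as the highest WT library. The levels were 9.47-fold higher in KO and 7.83-fold higher in HA than in WT cells without LPS, and 10.9- and 9.76-fold higher with LPS. HLA-DRB1, its partner chain, had higher counts in WT cells and smaller fold changes. It stood at 2664, 2354, 3284 and 2887 in WT, 8342, 6757, 13903 and 8799 in KO, and 13037, 11619, 8089 and 12365 in HA cells. Its log2 fold change was 1.71 in KO and 2.00 in HA cells without LPS, and 1.38 and 1.81 with LPS. With LPS the limma adjusted p in KO was 0.00481. It rose to between 0.0123 and 0.0272 when WT LPS replicate 1, 2 or 4 or KO LPS replicate 3 or 4 was left out. This call was also lost without a filter on low counts. The HLA-DRB1 libraries of SA cells ran from 2158 to 5057.

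HLA-DPA1 and HLA-DPB1, the 2 chains of HLA-DP, had the changes with the smallest p of the group in KO and HA cells without LPS and similar fold changes. HLA-DPA1 was at 34.8, 31.4, 43.2 and 48.8 in WT and 29.8, 51.6, 48.3 and 34.4 in SA cells. It was at 477, 506, 659 and 500.1 in KO and 285, 404, 349 and 444 in HA cells. HLA-DPB1 was at 31.9, 20.4, 40.9 and 36.4 in WT and 15.9, 28.1, 45.01 and 28.7 in SA cells. It was at 337, 357, 367 and 385 in KO and 267, 331, 374 and 478 in HA cells. For both genes a gap of over 5-fold separated the lowest HA or KO library from the highest WT or SA library. HLA-DPA1 was up-regulated by 3.73 in KO and 3.20 in HA cells (limma adjusted p = 1.92e-13 and 1.03e-11), and HLA-DPB1 by 3.48 and 3.46 (6.33e-11 and 1.33e-10).

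HLA-DQA1, an alpha chain of HLA-DQ, was close to the detection limit in WT and SA cells. It had 1 to 10 reads per WT library and 36 to 72 per KO library, which correspond to normalized counts of 1.45 to 11.4 and 49.3 to 77.3. In HA cells it ran from 18.6 to 62.6. With LPS it was at 0 in 2 of the WT libraries and reached 74.7 to 106 in KO and 26.9 to 71.3 in HA cells. Against WT, its log2 fold change was 3.66 in KO and 2.98 in HA cells without LPS, and 4.95 and 3.88 with LPS, and at such low counts its size depends on the added count of 1. The call in HA cells without LPS (limma adjusted p = 0.00836) was lost with a pseudocount of 0.5 (0.0268), without a filter on low counts (0.0224), and when WT replicate 1, 2 or 4 or any 1 HA library was left out (0.0101 to 0.0428).

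HLA-DMA and HLA-DMB form HLA-DM, which exchanges the invariant chain fragment for peptide. HLA-DMA was at 34.8, 23.8, 48.8 and 39.9 in WT, 127, 89.1, 91.8 and 118 in KO, 164, 142, 100.5 and 164 in HA, and 43.8, 36.2, 40.01 and 56.4 in SA cells. HLA-DMB was at 4.36, 10.2, 6.82 and 10.7 in WT, 72.8, 71.9, 49.3 and 46.6 in KO, 20.6, 32.4, 31.1 and 51.0 in HA, and 13.3, 8.15, 4.17 and 1.91 in SA cells. The KO and HA libraries of both genes were above all WT and SA libraries. HLA-DMA was up-regulated by 1.54 in KO and 1.94 in HA cells and HLA-DMB by 2.802 in KO cells. HLA-DMB in HA cells differed by 1.95 without passing (limma adjusted p = 0.0316), and with LPS it was up-regulated by 2.99 (9.61e-04).

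**Figure D2:**
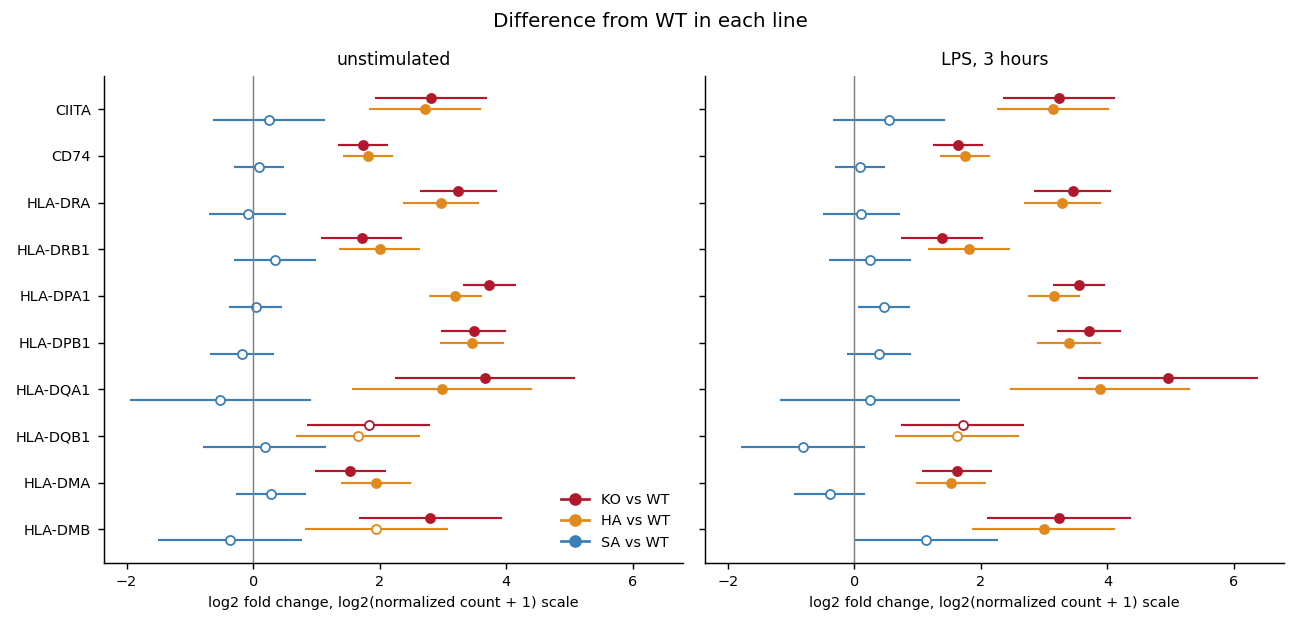
Log2 fold change of each gene relative to WT in KO, HA and SA cells without (left) and with LPS (right), on the log2(normalized count + 1) scale, with 95% confidence intervals from limma. Filled points passed an adjusted p of 0.01 and open points did not. The KO and HA points lie between 1.38 and 4.95 and the SA points between -0.81 and 1.13.

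In SA cells none of the 10 genes passed the test against WT, without or with LPS, and in this fit neither did any other gene (0%). With DESeq2 at the same limit, the study reported CXCL11, IFI44, GBP1, EPSTI1 and IFIT2, none of them members, as up-regulated with LPS. In limma, 445 and 646 of the 12406 genes had an unadjusted p below 0.05, and voom on the recovered reads called none of the 10. The log2 fold changes of the 10 genes ran from -0.52 to 0.35 without LPS, with a median of 0.07. HLA-DPA1 differed by 0.04 with a 95% confidence interval of -0.38 to 0.45, and HLA-DRA by -0.09 with an interval of -0.69 to 0.52, so that differences of the size seen in KO and HA cells lie outside these intervals. For HLA-DQA1 the interval was wide, from -1.95 to 0.91. With LPS the values ran from -0.81 for HLA-DQB1 to 1.13 for HLA-DMB. HLA-DPA1 (0.46) and HLA-DMB had an unadjusted p of 0.0297 and 0.049995, and an adjusted limma p of 0.825. Without SA LPS replicate 1, HLA-DQB1 differed by 0.07, HLA-DMB by 0.57 and HLA-DPA1 by 0.32.

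KO and HA cells were also compared with SA cells, which like WT carry a construct for an active ACLY. In KO, 9 genes were up-regulated without LPS (2.86% of all genes passed) and 8 with LPS (2.93%). In HA, 8 were up-regulated without LPS (1.5%) and 9 with LPS (2.02%). HLA-DQA1, which passed the filter on low counts through the KO and HA lines, is among the genes called in each. Leaving out SA LPS replicate 1 raised each of these 4 counts to 10 (4.05% and 2.77% of all genes passed in KO and 2.56% and 2.22% in HA, without and with LPS). Other changes of the fit lost calls in KO without LPS. The call of HLA-DRB1 was lost in 9 and that of HLA-DMA in 8 of 17 alternative settings (limma adjusted p up to 0.189 and 0.103). With the groups compared alone, which leaves the spread to 8 libraries, the counts with LPS fell to 3 in KO (0.145% of all genes passed) and 2 in HA (0.0645%). Without LPS every KO and every HA library was above every SA library for all 10 genes. In either direction, 10.9% and 11.1% of all genes were so separated. With LPS this held for 9 genes in KO and 8 in HA (8.85% and 10.7% of all genes). HLA-DRB1 overlapped in both lines, at 7357 in SA LPS replicate 1 against 5148 or more in KO and 7314 or more in HA. HLA-DMB overlapped in HA. HLA-DRA was 10.1-fold higher in KO than in SA cells without LPS and 8.31-fold higher in HA. These comparisons share the KO and HA libraries with those against WT.

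Between KO and HA cells no gene of the group passed the test, without LPS (0.226% of all genes passed) or with LPS (0.00806%). At an unadjusted p below 0.05 in limma there was 1 of the 10 without and 0 with LPS, against 1288 and 1307 of the 12406 genes. Voom on the recovered reads called none of the 10 either. The gene at the unadjusted limit was HLA-DPA1, 0.54 higher in KO cells with a 95% confidence interval of 0.12 to 0.95 (limma adjusted p = 0.361). Its 4 KO libraries were above the 4 HA libraries, as 4.98% of all genes were in one direction or the other. With LPS the same held for HLA-DQA1, at 74.7 to 106 in KO against 26.9 to 71.3 in HA cells, a separation that 5.09% of all genes showed, and its log2 difference was 1.07 with a 95% confidence interval of -0.36 to 2.50. Without LPS the interval of CIITA was -0.80 to 0.97 and that of HLA-DRB1 -0.93 to 0.36. With LPS they were -0.80 to 0.98 and -1.07 to 0.22. These data thus do not resolve differences below about 2-fold between the lines for these genes.

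As a share of all reads on genes, the 10 genes together held 0.0560% ± 0.00890 (SD, n = 4) in WT, 0.217% ± 0.0376 in KO, 0.226% ± 0.0254 in HA and 0.0675% ± 0.0165 in SA cells. With LPS the shares were 0.0564% ± 0.0105, 0.193% ± 0.0289, 0.217% ± 0.0304 and 0.0656% ± 0.0261. The last of these holds 0.105% in SA LPS replicate 1 and 0.0526% ± 0.00307 (SD, n = 3) in the other libraries. HLA-DRB1, CD74 and HLA-DRA made up between 88.9% and 97.5% of these reads in every library. In bulk RNA, a higher share of cells with class II transcripts and more transcripts per cell cannot be told apart.

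After 3 hours of LPS the class II chains, CD74 and HLA-DM differed from their unstimulated level by -0.77 to 0.85 on the log2 scale. Both ends are SA values, of HLA-DQB1 and HLA-DMB, which were 0.10 and 0.29 without SA LPS replicate 1, where the 9 genes ran from -0.57 to 0.65 in SA cells. None of the 10 genes passed the test for LPS in any line, where 0.25% of all genes passed in WT, 0.572% in KO, 0.403% in HA and 0.492% in SA cells. In limma, 0, 1, 1 and 3 of the 10 had an unadjusted p below 0.05, as did 200, 673, 592 and 1222 of the 12406 genes. The SA count of 3 was 1 without SA LPS replicate 1. Voom on the recovered reads called none of the 10. CIITA had the highest LPS value of the 10 genes in WT, KO and HA cells, and in SA cells only with SA LPS replicate 1 included. It differed by 0.72 in WT, 1.15 in KO, 1.14 in HA and 1.02 in SA cells on the log2 scale (standard error 0.43, limma adjusted p = 1.00, 0.484, 0.633 and 0.416). In KO and HA cells each LPS library was above each unstimulated library for CIITA, at 135 to 242 against 47.6 to 118 and at 124 to 244 against 59.9 to 86.1, a separation that 3.45% and 3.49% of all genes showed. In SA cells each LPS library was below each unstimulated library for HLA-DMA, at 21.2 to 34.7 against 36.2 to 56.4 (4.18% of all genes), with a log2 difference of -0.62 and an adjusted limma p of 0.438. The WT libraries overlapped. The SA value of CIITA fell to 0.39 without SA LPS replicate 1, below those of HLA-DQA1 (0.65), HLA-DPB1 (0.57) and HLA-DRA (0.47). The other 9 genes had a median LPS difference of 0.02 in WT, 0.10 in KO, 0.02 in HA and 0.06 in SA cells, the SA value being 0.29 without that library. CD74 was within -0.08 and 0.02 in the 4 lines.

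The LPS response was also compared between lines. For none of the 10 genes did the response of KO (0.00806% of all genes passed), HA (0%) or SA cells (0%) differ from that of WT at an adjusted p of 0.01, and none of the 10 had an unadjusted p below 0.05 in limma. Over all genes there were 175, 142 and 457 at that unadjusted limit, and voom called none of the 10. For CIITA the difference of the responses was 0.43 in KO with a 95% confidence interval of -0.82 to 1.68, and 0.42 in HA cells with -0.83 to 1.67. In SA cells it was 0.30, and -0.33 without SA LPS replicate 1.

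**Figure D3:**
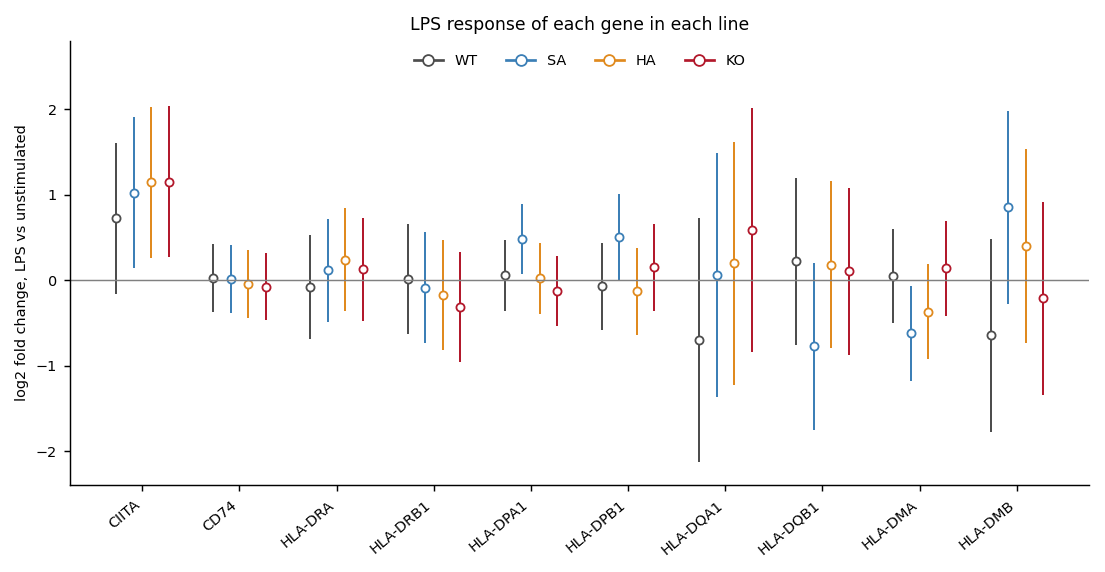
Log2 fold change after 3 hours of LPS for each gene in WT, SA, HA and KO cells, with 95% confidence intervals from limma. No value passed an adjusted p of 0.01, and CIITA, at 0.72 to 1.15, is the gene whose value lies above 0.5 in every line, the SA value falling to 0.39 without SA LPS replicate 1.

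The genes upstream of CIITA were followed in a list of 13 inducers and coactivators, 11 of which were tested. In KO cells 2 were up-regulated without and with LPS, JAK2 and IRF1, and the others did not pass (2.9% and 3.47% of all genes passed). In HA cells none passed without LPS and IRF1 did with LPS (2.52% and 2.02% of all genes). The median log2 fold change of the list was 0.21 and 0.42 in KO and 0.083 and 0.047 in HA cells. IRF1 had 466, 519.6, 546 and 599.98 normalized counts in WT, 871, 849, 1121 and 997 in KO, and 1009.5, 674, 826 and 997 in HA cells. The KO and HA libraries were above all WT libraries, a separation in either direction that 12% and 17.6% of all genes showed. IRF1, which acts on the interferon-responsive CIITA promoter, was up-regulated by 0.84 in KO cells and by 1.75 with LPS, and in HA cells by 1.16 with LPS. It was also up-regulated by LPS in WT (0.97), KO (1.88), HA (1.43) and SA cells (1.41). JAK2, a kinase of the interferon gamma receptor, was up-regulated by 0.85 and 1.12 in KO cells without and with LPS. In a fit of the KO and WT groups alone, JAK2 and IRF1 no longer passed without LPS (limma adjusted p = 0.0729 and 0.0116). In HA cells, JAK2 differed by 0.58 and 0.69 with an adjusted limma p of 0.0347 and 0.0130. Without SA LPS replicate 1 in the fit, IRF1 in HA cells without LPS and JAK2 with LPS passed as well (limma adjusted p = 0.00656 and 0.0099). No gene of this list passed in SA against WT cells. IFNG, which encodes interferon gamma, had 0 reads in all 32 libraries. With the replicate block, SOCS1 and PRDM1 also passed in KO cells with LPS, which makes 4, in the fit that called 10.7% of all genes.

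The list of 23 class II partners holds the DNA-bound factors, proteases of the endosome, further class II chains and binding partners, and 15 were tested. HLA-DRB5, a further HLA-DR beta chain whose promoter also holds the X pattern followed by ATTGG, was up-regulated in all 4 comparisons with WT, by 1.63 and 1.80 in KO and 1.34 and 1.57 in HA cells without and with LPS. It had 238, 259.8, 276 and 342 normalized counts in WT and 856, 888, 761 and 948 in KO cells, which did not overlap, as 12% of all genes did not. CTSD, an endosomal protease, passed in KO cells without LPS (1.09, limma adjusted p = 0.00219). With the replicate block, CTSS and CTSB also passed without LPS, and CTSD, CTSL and RFX5 with LPS, for 4 of 15 genes in each condition, where that fit called 5.83% and 10.7% of all genes. RFX5, a subunit of the factor on the X box, differed by 0.36 and 0.74 in KO and by 0.10 and 0.13 in HA cells. RFXAP, RFXANK, CREB1, NFYA, NFYB and NFYC did not pass in any comparison with WT, and CREB1 passed in HA cells without LPS (0.53, limma adjusted p = 0.00709) when SA LPS replicate 1 was left out. The median log2 fold change of the list was 0.23 and 0.22 in KO and -0.09 and -0.06 in HA cells.

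**Figure D4:**
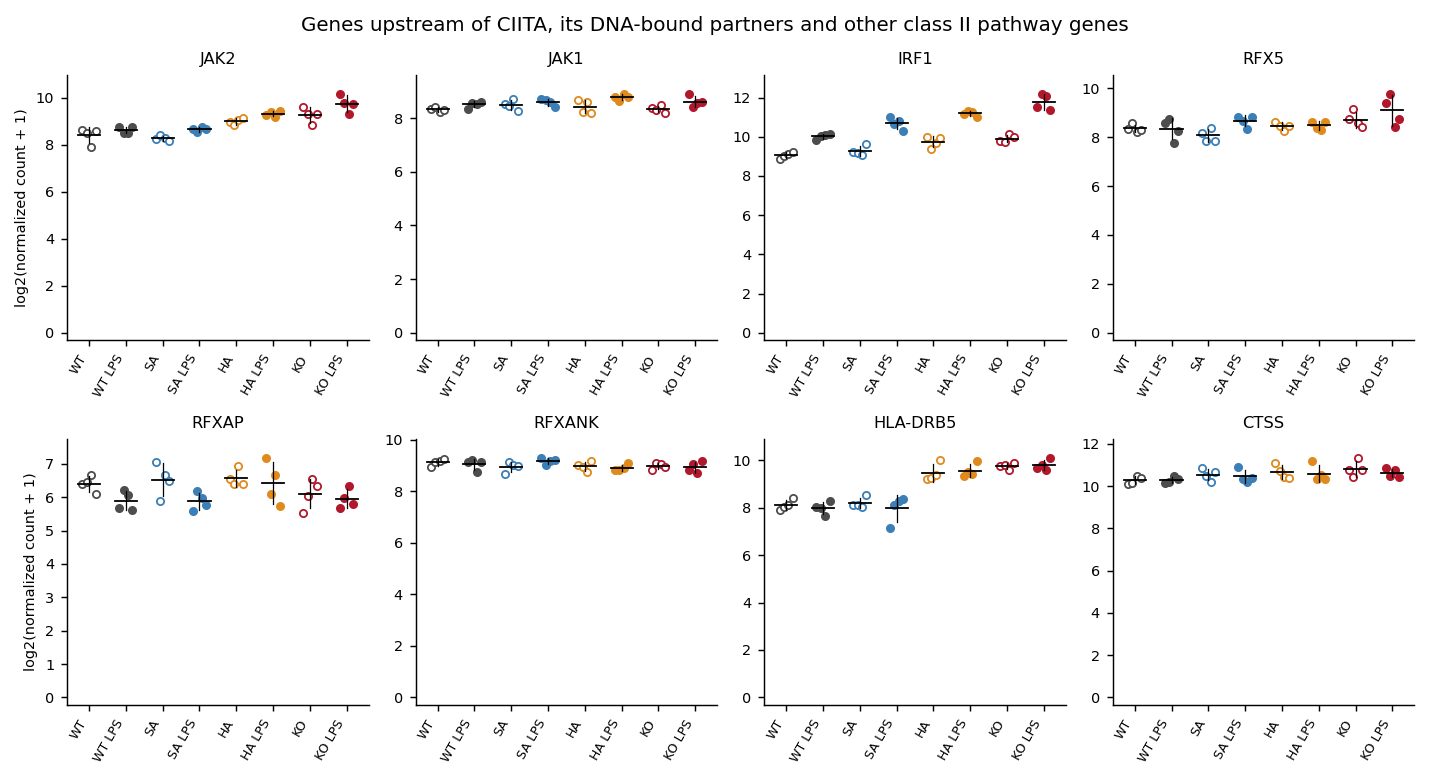
Level in each library, as log2(normalized count + 1), of JAK2, JAK1 and IRF1, which act upstream of CIITA, of RFX5, RFXAP and RFXANK, which bind the X box, and of HLA-DRB5 and CTSS. Symbols are open for unstimulated and filled for LPS-treated cells, with the mean and 1 SD (n = 4), and the HA and KO libraries of IRF1 lie above the WT libraries without LPS, at 674 or more against 599.98 or less.

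The MHC class I counterpart, was followed in a list of 12 genes that were all tested. In KO cells 4 were up-regulated without and with LPS, where 2.9% and 3.47% of all genes passed. They were the class I chains HLA-E and HLA-F, the peptide transporter TAP1 and the immunoproteasome subunit PSMB9. With the replicate block 6 and 9 of the list passed, against 5.83% and 10.7% of all genes. In HA cells HLA-E passed alone, by 0.54 without and 0.65 with LPS, where 2.52% and 2.02% of all genes passed. Without SA LPS replicate 1 in the fit PSMB9 passed too (0.55 and 0.58). The median log2 fold change of the list was 0.51 and 0.76 in KO and 0.04 and 0.27 in HA cells. NLRC5, the class I counterpart of CIITA, differed by 0.11 and -0.11 in KO and by -0.03 and 0.05 in HA cells, with none passing. In SA cells none of the 12 passed.

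Markers of cell types were measured beside these results. All 12 monocyte markers, which mark the labelled cell type, were tested. Their summed level, most of which is S100A9 and LYZ, was 33751 to 48693 in WT and 29347 to 36533 in SA cells, against 80213 to 118791 in KO and 72729.9 to 105734 in HA cells, and in SA LPS cells it was 98132 in replicate 1 and 26088 to 31766 in the others. LYZ, lysozyme, was up-regulated in KO and HA cells with and without LPS, by 1.62 to 2.29. CD14 passed as higher in KO cells without LPS (1.66) and as lower in HA cells with LPS (-1.37). CD33 was lower in KO cells with LPS (-0.73) and ITGAM in HA cells with LPS (-1.41), and the other markers did not pass, S100A9 doing so in KO and HA cells in both conditions without SA LPS replicate 1 in the fit (1.25 to 1.34). Over the 12 markers the median log2 fold change was 0.29 and 0.23 in KO and 0.11 and 0.15 in HA cells without and with LPS. The other marker lists were low. Of 10 B cell markers 2 were tested, and MS4A1, IGHM and BLK had 4 or fewer reads in every library. The summed level of the B cell list was 71.0 to 111 in WT and 164 to 219 in KO cells, against 106 to 121 in HA cells, and PAX5, a B cell transcription factor, was up-regulated by 1.70 and 1.99 in KO cells, with -0.80 and 0.89 in HA cells, neither of which passed. Of 12 dendritic cell markers 2 were tested, FLT3 and BATF3. BATF3 fell in KO cells by 1.103 and 1.059 on the log2 scale and FLT3 rose there by 2.08 with LPS, and CLEC9A, XCR1 and FCER1A had 2 or fewer reads in every library. The summed dendritic cell level was 174 to 293 in WT, 138 to 163 in KO and 152 to 182 in HA cells. None of 8 T cell markers was tested, CD3E and CD3G had no read, and their sum was 0 to 24.9 in any library. The part of the monocyte, B cell and dendritic cell genes in the class II result was not tested.

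The genes with the most similar pattern were taken by Pearson correlation of log2(normalized count + 1) over the 32 libraries, which share the differences between lines, as a description. For HLA-DRA they were HLA-DRB5 (r = 0.978), SMIM14 (0.969), S100A12 (0.957), CAV1 (0.95) and SLC15A4 (0.947). S100A12, a calcium-binding protein of myeloid cells, had a mean of 719.7 normalized counts in WT, 3743 in KO, 4487 in HA and 686 in SA cells. For CIITA they were PDGFA (0.949), IGSF6 (0.928), GBP2 (0.926), PLEK (0.921) and RGL1 (0.914).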

How the data were processed

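RNA of THP-1 lines was sequenced with a QuantSeq 3′ kit (single-end, 75-base reads). The authors trimmed reads with Bbduk, aligned them to GRCh38 with STAR, counted them per gene with HTSeq-count and analysed the counts with DESeq2; versions, annotation release and use of strand are not given in the sources used here. The deposited values, in 8 tables, are normalized counts with decimal commas. In every library 100% of them were whole multiples of 1 number within 0.05 reads, which gave the reads back. The deposited size factors were those of each line alone, so median-of-ratios factors were recomputed over all 32 libraries and the 12406 genes with a mean deposited value of at least 10. 92 spike-in rows were left out.

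Log2(normalized count + 1) was fitted with limma 3.58.1 in R 4.3.3, with 8 group means and a trend in eBayes. P-values were adjusted by the Benjamini-Hochberg method over all genes, with a limit of 0.01. Tests were two-sided. In simulated data for KO against WT, 16 of 50 genes changed 2-fold, 40 of 50 changed 4-fold and 46 of 50 changed 8-fold were recovered. There were 4 false calls among the genes left unchanged, in a run of 12406 genes. The simulated libraries were drawn independently, without deviations shared by same-numbered libraries or a library that stands apart. These figures therefore need not hold for the real libraries. Groups came from the sample titles. One gene of the list of CIITA inducers is not reported here and was left out of its counts. The members and lists were chosen with earlier results of these data known, and the rule for named genes took the members, the list genes that pass, and the 5 genes most like HLA-DRA and CIITA. Other list genes named were chosen after their values were seen. Replicate numbers were checked by the correlation across genes of same-numbered deviations from the group mean: it was 0.124 to 0.723 in all pairs of WT, WT LPS, KO and KO LPS, which were taken as paired, and not above 0.1 throughout in any other pair of groups. Voom on recovered reads and the fit without SA LPS replicate 1 were added after the data were seen. The count tests of edgeR and DESeq2 planned as alternatives were not run, and voom stood in for them.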

Additional observations from a re-analysis of the deposited data

Results flagged for a closer look

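Dixon's test was applied to each of the 10 genes in each of the 8 groups, 80 tests in all, of which 7 passed at a level where chance gives about 1 in 20. In SA LPS replicate 1, CIITA stood at 99.8 normalized counts against 13.01 to 25.9 in the other 3 libraries, CD74 at 3325 against 1845 to 1957, and HLA-DRB1 at 7357 against 2271 to 2921. In WT replicate 3, CIITA was at 21.6 against 7.26 to 8.88 and CD74 at 2893 against 1708 to 1903. HLA-DRA was at 4243 in HA LPS replicate 4 against 2717 to 2913, and HLA-DPA1 at 659 in KO replicate 3 against 477 to 506.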

How the results depend on the processing

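In KO and HA against WT or SA, the 10 genes kept their direction in all 1340 alternative values, of which 93 lost and 24 gained the call. The counts of genes called stayed within 1.5 times under the deposited scale, TMM factors, a pseudocount of 0.5, no filter on low counts and voom. With the groups compared alone they were 3 in KO and 2 in HA against SA with LPS, where 0.145% and 0.0645% of all genes passed. A replicate block was also used in groups that the numbers do not pair, fitted alone. The counts were then 3 and 4 in HA against WT without and with LPS, in fits that called only 8 and 7 of all 12406 genes. They were 0 and 0 in KO against SA, and 0 in HA against SA with LPS. The cause was not tested, and these fits have fewer libraries for the spread. With a block over all 32 libraries every count stayed within 1.5 times. In the comparisons within and between WT and KO groups, where the numbers pair the libraries, the block fitted in those groups raised the counts against WT to 10 and 10 and left the counts for LPS and for the difference of LPS responses at 0. Leaving out 1 library at a time, the counts ran from 9 to 10 and 8 to 10 in KO against WT and from 7 to 9 and 9 to 10 in HA against WT, without and with LPS, and from 7 to 10 in the comparisons with SA. On the deposited scale HLA-DRA (0.17) and HLA-DPB1 (0.072) were above 0 in SA against WT without LPS. Leaving out 1 library at a time also turned the direction of 31 small differences, none of which passed the test in any setting. Ranges in SA against WT without LPS were HLA-DRA -0.26 to 0.11, HLA-DPA1 -0.082 to 0.18, HLA-DPB1 -0.41 to 0.074, HLA-DQA1 -0.83 to 0.052, HLA-DMB -0.73 to 0.031. Ranges in SA against WT with LPS were CIITA -0.0899 to 0.86, CD74 -0.11 to 0.19, HLA-DRA -0.093 to 0.46, HLA-DRB1 -0.14 to 0.43, HLA-DQA1 -0.26 to 0.84, HLA-DQB1 -1.16 to 0.065. Ranges for LPS in WT were CD74 -0.086 to 0.19, HLA-DRA -0.25 to 0.068, HLA-DRB1 -0.13 to 0.16, HLA-DPA1 -0.044 to 0.16, HLA-DPB1 -0.27 to 0.052, HLA-DMA -0.14 to 0.19. Ranges for LPS in KO were CD74 -0.18 to 0.0901, HLA-DRA -0.034 to 0.25, HLA-DQB1 -0.10 to 0.23, HLA-DMA -0.0066 to 0.38. Ranges for LPS in HA were CD74 -0.12 to 0.038, HLA-DPA1 -0.12 to 0.11, HLA-DPB1 -0.33 to 0.025, HLA-DQA1 -0.11 to 0.45, HLA-DQB1 -0.10 to 0.44. Ranges for LPS in SA were CD74 -0.18 to 0.10, HLA-DRA -0.086 to 0.47, HLA-DRB1 -0.47 to 0.10, HLA-DQA1 -0.51 to 0.65, HLA-DQB1 -1.12 to 0.10. Among list genes, a fit of the compared groups alone lost the calls of CTSD, TAP1, HLA-F and BATF3 in KO without LPS, of CD33, FLT3, BATF3 and PAX5 in KO with LPS, of HLA-E in HA, of CD14 and ITGAM in HA with LPS and of IRF1 for LPS in SA, beside those of JAK2 and IRF1 given above. HLA-F in KO without LPS was also lost on the deposited scale (limma adjusted p = 0.0105), without a filter (0.0125) and with voom (0.0192). The edgeR and DESeq2 tests were not run. At this depth, HLA-DQA1, HLA-DMB and CIITA rest on under 30 reads per library in WT cells.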

Other observations

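The chains of HLA-DR did not move together between libraries of a group. In each of WT, WT LPS, KO and KO LPS, replicate 3 had the highest HLA-DRB1 and CD74 and the lowest HLA-DRA of its group. The HLA-DRA to HLA-DRB1 ratio of normalized counts was accordingly lowest in replicate 3 in these 4 groups, at 0.0709 in WT (median 0.137), 0.0645 in WT LPS (0.124), 0.163 in KO (0.400) and 0.255 in KO LPS (0.539). In HA, HA LPS, SA and SA LPS it was lowest in replicate 1, at 0.150 (median 0.257), 0.203 (0.342), 0.0409 (0.107) and 0.0222 (0.160). The lowest KO value was above the highest WT value, 0.163 against 0.157, and the lowest HA value, 0.150, was not. With LPS the lowest values of both KO (0.255) and HA (0.203) were above the highest WT value, 0.167. What differs between these libraries was not tested.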
